A study of Mus musculus with 27 samples.

Results

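Ischemic mouse cortex at 12 h of recovery was compared with sham cortex across every miRNA entry of a small RNA count table. The comparison uses 6 of the 27 libraries: 3 from the occluded (ipsilateral) hemisphere at 12 h and 3 from sham animals. They were chosen by their column labels, not by any measured value. All mice were wild-type C57BL6, an inbred laboratory strain, aged 7 to 8 weeks, and the tissue was dissected cortex. In the ipsilateral group a nylon suture blocked the middle cerebral artery for 35 min while the common carotid artery was tied off, after which blood flow was restored and the cortex was taken 12 h later. Sham animals had the same anaesthesia and exposure of the arteries, with no filament inserted. The other 21 libraries are contralateral cortex at 3, 6, 12 and 24 h and ipsilateral cortex at 3, 6 and 24 h, with 3 libraries a group. The same replicate number in different groups marks the same day of surgery, with separate animals in each set. The suture blocks one side only, and the dissected cortex mixes neurons, glia, vessels and blood, so in these bulk samples fewer cells of a type and less RNA per cell cannot be told apart.

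A miRNA is cut from a hairpin precursor in the nucleus and cytoplasm, and either arm of the hairpin, named 5p or 3p, can be loaded into an Argonaute protein. The loaded strand finds target mRNAs mainly through its seed, the bases from position 2 to 8 at its 5′ end, and lowers their translation and stability. Adult cortex is dominated by a small number of abundant miRNAs of neurons and glia, such as miR-9, miR-124, miR-128 and the let-7 family, while many annotated entries are scarce and some lie inside the exons of mRNAs or ribosomal RNA.

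The mature sequences below are those of entries that carry the result, as RefSeq (GRCm38.p6) gives them and matched by name, 5′ to 3′, with the seed in capitals. The first 9 are the leading entries that were higher after ischemia and had a sequence in that table.

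miR-701-5p: uUAGCCGCugaaauagaugga

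miR-7687-3p: cCACUCAGucgccccgccaca

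miR-718: cUUCCGCCcggccgggugucg

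miR-6968-5p: aGGGGGCGagggggcccugugg

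miR-2861: gGGGCCUGgcggcgggcgg

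miR-3109-5p: aAUGGAUGcgaugguucccaugcu

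miR-6538: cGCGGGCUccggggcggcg

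miR-6240: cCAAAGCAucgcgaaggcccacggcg

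miR-1892: aUUUGGGGacgggagggaggau

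Next are 2 higher entries from well-known clusters (miR-494-3p and miR-18a-5p), the higher entry with the highest GC content (miR-5126), 2 higher entries that share a seed (miR-149-3p and miR-7016-5p), and the 4 named lower entries. GC content and seeds could be compared only among the 61 higher entries with a sequence, where no other seed was shared.

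miR-494-3p: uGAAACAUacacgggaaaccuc

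miR-18a-5p: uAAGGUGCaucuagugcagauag

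miR-5126: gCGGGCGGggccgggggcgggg

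miR-149-3p: gAGGGAGGgacgggggcggugc

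miR-7016-5p: cAGGGAGGggagcgagaguag

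miR-693-3p: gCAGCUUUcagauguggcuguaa

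miR-7026-3p: uGUGCUUUcuggucuuggcuuag

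miR-141-3p: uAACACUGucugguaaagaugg

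miR-429-3p: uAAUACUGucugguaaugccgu

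The values below return to the high GC content of many of the higher entries, to miR-701-5p, whose GC content is low, and to the miR-200 family members miR-141-3p and miR-429-3p.

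Total counts were between 856591 and 1206079 in the ipsilateral 12 h libraries and between 954337 and 1358956 in the sham libraries. One read was worth between 0.811 and 1.23 CPM, the usual unit of counts relative to library size (here the total times its TMM factor). Ipsilateral replicate 2 had the lowest TMM factor of the 27 libraries, 0.676, and a median count per entry of 6. On the first principal component of log CPM over the 27 libraries, which held 41.4% of the variance, the ipsilateral 12 h libraries had scores of 9.71, -6.91 and 32.4 (replicates 1, 2 and 3), and the sham libraries had -4.96, -13.9 and -8.31. On this component ipsilateral replicate 3 stood far from sham and replicate 2 fell among the sham libraries. On the second component (11.8% of the variance) ipsilateral replicate 2 was the most extreme of the 27 libraries, at -17.5, with sham libraries at 11.3, -4.12 and -0.20. Sham replicate 2 also stood apart, by its epithelial entries, as given below. The tissue label was checked with neuron-enriched miRNAs: miR-124-3p averaged 6033 ± 2487 CPM in ipsilateral 12 h cortex and 4997 ± 1389 CPM in sham cortex (SD, n = 3 each), and miR-128-3p and miR-9-5p were among the 10 most abundant entries.

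The comparison asks which miRNAs differ in the ischemic cortex at 12 h of recovery. Of 1470 entries tested, 80 were called at an adjusted p under 0.05 with edgeR's quasi-likelihood test, or 5.44% of those tested. The calls were lopsided: 70 entries were higher after ischemia (4.76%) and 10 were lower (0.68%). The higher entries were scarce miRNAs of sham cortex. Their mean level had a median of 96.9 CPM in ipsilateral 12 h cortex and of 12.1 CPM in sham cortex, and 69 of the 70 were under 100 CPM in sham cortex. Their log2 fold changes ranged from 1.37 (miR-7093-3p) to 6.41 (miR-701-5p), with a median of 3.11 against -0.02 over all entries tested. In 56 of the 70 every ipsilateral library was above every sham library, where 6.12% of all tested entries had that arrangement. The 70 were picked by a test on these same libraries, which favours such separation here and in the sums and daily ratios below.

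**Figure D1:**
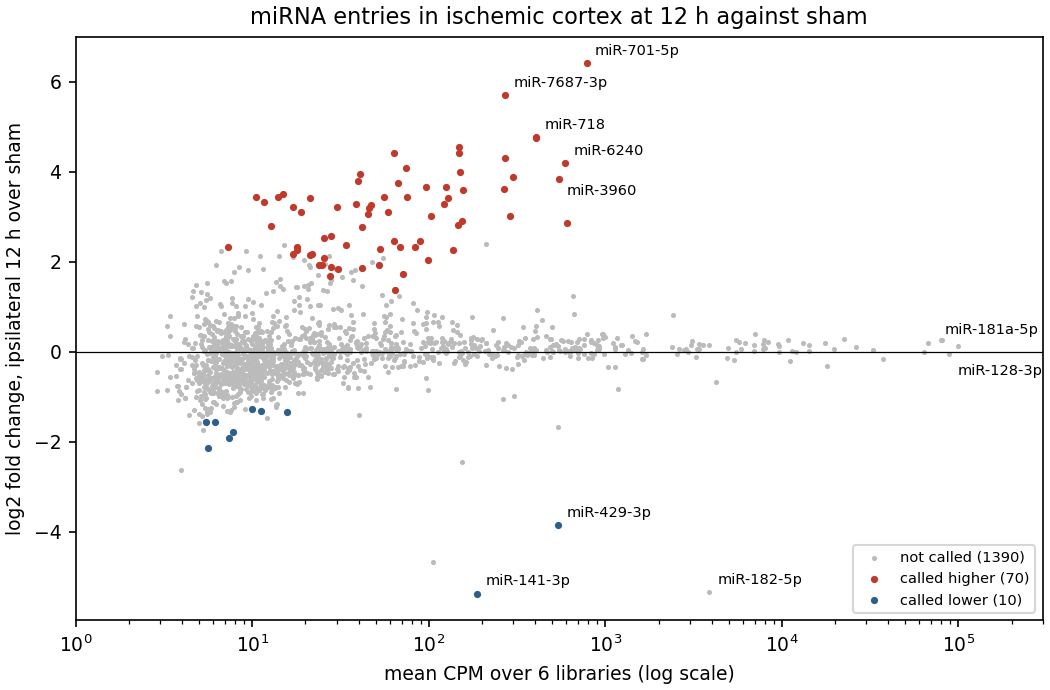
Log2 fold change of ipsilateral 12 h over sham cortex (vertical axis) against the mean CPM over the 6 libraries (horizontal log axis) for each of the 1470 tested entries. The 70 entries called higher (red) lie on the scarce and middling side, the 10 called lower (blue) include miR-141-3p and miR-429-3p, and no entry with a mean of at least 1000 CPM was called.

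The size of the rise differed between the 3 animals. Summed over the 70 higher entries, the ipsilateral libraries held 7239, 3442 and 34649 CPM in replicates 1, 2 and 3, and the sham libraries held 1580, 1123 and 1354 CPM. All 3 ipsilateral sums were above all 3 sham sums, and replicate 3 was the highest ipsilateral library in 69 of the 70 entries while replicate 2 was the lowest in 61. Within the surgery days, 65 of the 70 were higher in the ipsilateral library than in the sham library on every day, with median log2 ratios (CPM + 1) of 1.63, 1.27 and 4.11 on days 1, 2 and 3. Without ipsilateral replicate 3, 7 entries were called, all higher: miR-701-5p, miR-7687-3p, miR-718, miR-6968-5p, miR-3109-5p, miR-6538 and miR-7666-5p. Without sham replicate 2 there were 24 calls, without sham replicate 3 there were 40, and a fit to the 6 libraries alone called 0, with 108 entries at an unadjusted p under 0.05 and a smallest adjusted p of 0.203.

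Among the leading entries, 5 lie in introns of protein-coding genes on the same strand. miR-701-5p, from chr5:111004144-111004252 (plus strand) in an intron of Ttc28, had 651, 334 and 3659 CPM in ipsilateral 12 h cortex, against 13, 19.2 and 22.2 CPM in sham cortex. The lowest ipsilateral library was thus far above the highest sham library. Its log2 fold change was 6.41 ± 0.83 (SE, edgeR adjusted p = 6.6e-05), the largest of any call, and it was 4.77 without ipsilateral replicate 3 (adjusted p = 4.0e-04). miR-7687-3p, from chr8:120538696-120538754 (plus strand) in an intron of Gse1 and of the overlapping Gm20388, had 293, 62.6 and 1233 CPM after ischemia and 11.3, 10.5 and 8.08 CPM in sham cortex. The groups did not overlap, and the log2 fold change was 5.71 ± 0.95 (edgeR adjusted p = 9.5e-04).

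miR-6968-5p, from chr17:26935472-26935539 (plus strand), lies in an intron of Phf1, a gene for a partner of the Polycomb repressive complex, with Cuta on the other strand. It had 183, 73.6 and 595 CPM in ipsilateral libraries and 9.73, 14.0 and 12.1 CPM in sham libraries, which gave 4.56 ± 0.74 on the log2 scale (edgeR adjusted p = 9.5e-04). miR-3109-5p, in an intron of Anxa2 (annexin A2, a calcium-dependent membrane-binding protein) at chr9:69456944-69457031 (plus strand), had 29.8, 40.5 and 294 CPM after ischemia and 7.29, 4.37 and 5.05 CPM in sham cortex. Ipsilateral replicates 1 and 2 were close to each other and above every sham library, and the log2 fold change was 4.42 ± 0.78 (edgeR adjusted p = 0.0011). miR-6538, in an intron of the ubiquitin ligase gene Rnf144a at chr12:26414901-26415010 (minus strand), had 209, 108 and 1228 CPM against 35.7, 15.7 and 26.3 CPM in sham cortex. It rose by 4.31 ± 0.75 on the log2 scale (edgeR adjusted p = 0.0011).

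The leaders miR-718, miR-2861 and miR-1892 lie in exons of protein-coding genes, where the annotation puts them in an untranslated region. For miR-2861 the only matching Cdk9 transcript is one annotated for nonsense-mediated decay. miR-718, at chrX:74023849-74023936 (minus strand) in Irak1, whose kinase acts downstream of interleukin-1 and Toll-like receptors, had 247, 185 and 1914 CPM in ipsilateral 12 h cortex and 35.7, 20.1 and 30.3 CPM in sham cortex. Its log2 fold change was 4.76 ± 0.79 (edgeR adjusted p = 9.5e-04). miR-5132-5p, in an exon of an Irak1 transcript with a retained intron, rose by 2.18 ± 0.57 (edgeR adjusted p = 0.024, but 0.71 without ipsilateral replicate 3 and 0.071, 0.11 and 0.071 without sham replicates 1, 2 and 3). Both Irak1 entries were higher in every ipsilateral library than in any sham library.

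miR-2861, at chr2:32712807-32712888 (minus strand) in Cdk9, the gene of an RNA polymerase II kinase needed for transcript elongation, had 92.6, 47.9 and 705 CPM after ischemia against 11.3, 6.12 and 22.2 CPM in sham cortex. Its log2 fold change was 4.42 ± 0.79 (edgeR adjusted p = 0.0011). miR-3960, which is known as the cluster partner of miR-2861, had 655, 221 and 2176 CPM in ipsilateral libraries and 92.4, 54.2 and 64.7 CPM in sham libraries, and rose by 3.85 ± 0.71 on the log2 scale (edgeR adjusted p = 0.0014). Both of the 2 entries listed for this locus were thus called higher, where 4.76% of all tested entries were. The list was chosen with earlier results of these data known, so this count is not a test of the locus. Without ipsilateral replicate 3 their edgeR adjusted p-values were 0.055 (miR-2861) and 0.058 (miR-3960).

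miR-1892, at chr12:54645933-54646012 (minus strand) in Sptssa, a subunit of the enzyme that starts sphingolipid synthesis, was one of the scarcest leaders. It had 48.3, 16.0 and 165 CPM in ipsilateral 12 h cortex and 2.43, 1.75 and 11.1 CPM in sham cortex, and the log2 fold change was 3.95 ± 0.74 (edgeR adjusted p = 0.0015). Its sham level in replicates 1 and 2 is worth only a few reads, and without ipsilateral replicate 3 the adjusted p was 0.058. It was the single entry called when only the 6 libraries were fitted with the surgery day as a block.

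Of the 3 entries listed as derived from ribosomal RNA, 2 were called higher, where 4.76% of all tested entries were. The list was chosen with earlier results of these data known, so this count is not a test of the group. miR-6240, at chr5:114851948-114852064 (plus strand) outside annotated genes, had 228, 166 and 2986 CPM after ischemia and 53.5, 48.9 and 81.8 CPM in sham cortex. The log2 fold change was 4.2 ± 0.79 (edgeR adjusted p = 0.0015), and 1.69 without ipsilateral replicate 3 (adjusted p = 0.13). miR-712-3p, known to be cut from the ribosomal RNA precursor, had 15.4, 7.36 and 54.7 CPM in ipsilateral libraries and 3.24, 2.62 and 1.01 CPM in sham libraries. It rose by 3.44 ± 0.75 on the log2 scale (edgeR adjusted p = 0.0061), while the other arm, miR-712-5p, did not pass (2.24 ± 0.83, adjusted p = 0.15). The call of miR-712-3p did not hold without ipsilateral replicate 3 (adjusted p = 0.26). The count table has no entry for ribosomal RNA itself.

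The last 3 leading entries had no sequence in the RefSeq table. miR-1893 had 237, 135 and 1973 CPM in ipsilateral 12 h cortex, against 34.9, 20.1 and 30.3 CPM in sham cortex (log2 fold change 4.78 ± 0.84, edgeR adjusted p = 0.0011). miR-7666-5p had 111, 52.8 and 680 CPM, against 28.4, 8.74 and 15.2 CPM in sham cortex (4.0 ± 0.70, edgeR adjusted p = 0.0011), and miR-7040-5p had 31.9, 28.2 and 360 CPM, against 12.2, 6.12 and 6.06 CPM in sham cortex (4.09 ± 0.85, edgeR adjusted p = 0.0039). In all 3, as in the other leaders, the groups did not overlap and ipsilateral replicate 3 was the highest library. Without that library the edgeR adjusted p was 0.051 for miR-1893, 0.28 for miR-7040-5p and 0.048 for miR-7666-5p.

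**Figure D2:**
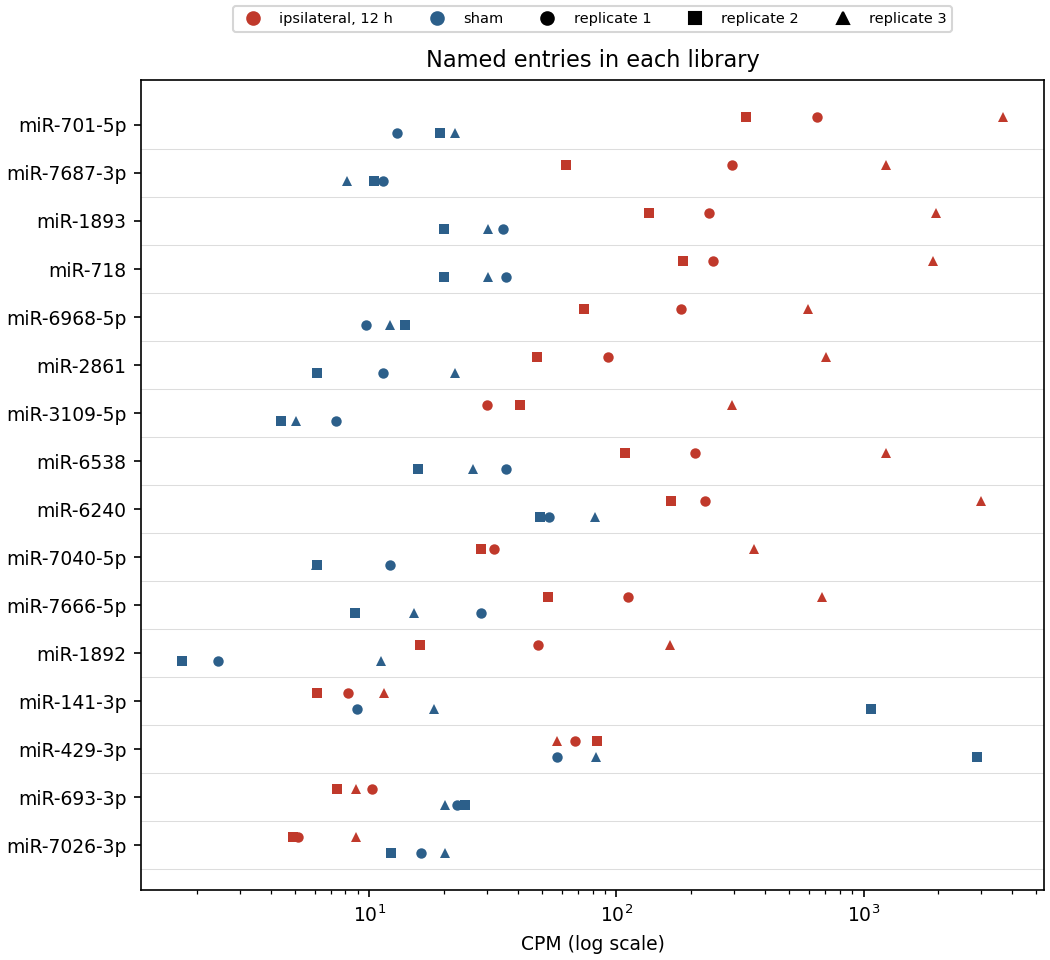
CPM (log axis) of the 12 leading higher and the 4 named lower entries, with ipsilateral 12 h libraries in red above sham libraries in blue and 1 marker shape per replicate. For the 12 higher entries all red markers lie right of all blue ones and the red triangle (replicate 3) lies farthest right, while miR-141-3p and miR-429-3p have a single high sham square, at 1074 and 2884 CPM.

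Members of well-known clusters were called at about the rate of all entries, so the counts say nothing about the clusters as such. In the Dlk1-Dio3 cluster, an imprinted domain on chromosome 12 that holds many neuronal miRNAs, 1 of 44 tested listed members was called higher, where 4.76% of all tested entries were. That member, miR-494-3p, had 32.9, 25.8 and 198 CPM after ischemia and 10.5, 6.12 and 10.1 CPM in sham cortex. Its log2 fold change was 3.26 ± 0.69 (edgeR adjusted p = 0.0049), with groups that did not overlap, but the adjusted p was 0.26 without ipsilateral replicate 3 and 0.053 without sham replicate 2. The median over the 44 members was 0.05 against -0.02 over all entries. Next to the call, miR-370-3p had 220, 250 and 522 CPM, against 201, 206 and 182 CPM in sham cortex, and did not pass (0.75 ± 0.32, edgeR adjusted p = 0.24), nor did miR-665-3p (1.08 ± 0.44, adjusted p = 0.20).

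The list does not hold every entry of the domain. Taken by position instead, from Dlk1 to Dio3 (chr12:109452823-110281097), a choice made after the values were seen, 100 tested entries with a RefSeq sequence had their hairpin inside, and 4 of them (4.0%) were called higher and 0 lower by edgeR. Besides miR-494-3p these were miR-341-5p in an intron of the noncoding RNA gene Rian, miR-3072-5p in an exon of Mirg, and miR-1247-5p in an exon of Dio3os. miR-3072-5p had 82.3, 25.8 and 139 CPM after ischemia and 16.2, 4.37 and 6.06 CPM in sham cortex (3.19 ± 0.72, edgeR adjusted p = 0.0071). Its adjusted p was 0.11 without ipsilateral replicate 3, 0.074 without sham replicate 2 and 0.052 without sham replicate 3. miR-1247-5p had 114, 88.4 and 562 CPM after ischemia and 35.7, 41.1 and 31.3 CPM in sham cortex (2.82 ± 0.51, edgeR adjusted p = 0.0011), and its adjusted p was 0.058 without ipsilateral replicate 3. In both the groups did not overlap.

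In the miR-17/92 clusters, known for their part in cell proliferation, 1 of 14 tested members was called higher, against 4.76% of all entries. miR-18a-5p, in an exon of the host transcript Mir17hg at chr14:115043851-115043946 (plus strand), had 19.5, 6.14 and 139 CPM in ipsilateral libraries and 6.48, 6.99 and 4.04 CPM in sham libraries. The groups overlapped, since ipsilateral replicate 2 lay below 2 sham libraries. The rise of 3.22 ± 0.87 on the log2 scale (edgeR adjusted p = 0.029) was lost with the surgery day as a block (adjusted p = 0.10) and without ipsilateral replicate 3 (1.15, adjusted p = 0.81), and without sham replicate 1, 2 or 3 the adjusted p was 0.080, 0.13 and 0.12. Its neighbours from the same transcript did not pass: miR-17-5p was at -0.03 on the log2 scale, miR-20a-5p at -0.23 and miR-92a-3p at 0.06. miR-18b-5p, nearly identical to miR-18a-5p and so able to share its reads, had 1.63 and did not pass either.

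The opposite arms of the higher entries gave a within-hairpin view. Of the 70 higher entries, 49 carry an arm in their name, and for 36 of these the other arm was tested. None of the 36 other arms was called by edgeR, where 4.76% of all entries were called higher and 0.68% lower. With 36 arms this is near those shares, so the count says nothing about the other arms. Their median log2 fold change was 0.10. The called arms were picked for a difference in these same libraries, which favours a smaller value in the other arm. Many other arms were also scarce, such as miR-494-5p at a mean of 4.53 CPM after ischemia and 7.19 CPM in sham cortex. miR-149-5p, the dominant arm of its hairpin, averaged 732 CPM in ipsilateral 12 h cortex and 704 CPM in sham cortex, a log2 fold change of 0.05 ± 0.36. The minor arm miR-149-3p had 127, 43.0 and 510 CPM after ischemia and 51.9, 21.8 and 67.7 CPM in sham cortex, with overlapping groups and a rise of 2.27 ± 0.67 on the log2 scale (edgeR adjusted p = 0.047), a call that did not hold with the block (0.094) or without any one of ipsilateral replicate 3 (0.77) and sham replicates 1, 2 and 3 (0.11, 0.25 and 0.086).

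The same arrangement held for miR-341, whose 3p arm averaged 559 CPM in ipsilateral 12 h cortex and 514 CPM in sham cortex (0.12 ± 0.27), while miR-341-5p had 91.5, 52.8 and 726 CPM against 35.7, 14.0 and 22.2 CPM in sham cortex (3.59 ± 0.75, edgeR adjusted p = 0.0040, but 0.28 without ipsilateral replicate 3 and 0.053 without sham replicate 2). For miR-494 and miR-18a the other arm leaned the opposite way without passing, at -0.58 ± 0.50 for miR-494-5p and -0.97 ± 0.51 for miR-18a-3p. The largest values among the other arms were miR-712-5p at 2.24 and miR-7045-5p at 1.36 ± 0.51 (edgeR adjusted p = 0.15). The difference between the arms of a hairpin was not tested, and an arm outside the threshold is not shown to be unaltered.

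**Figure D3:**
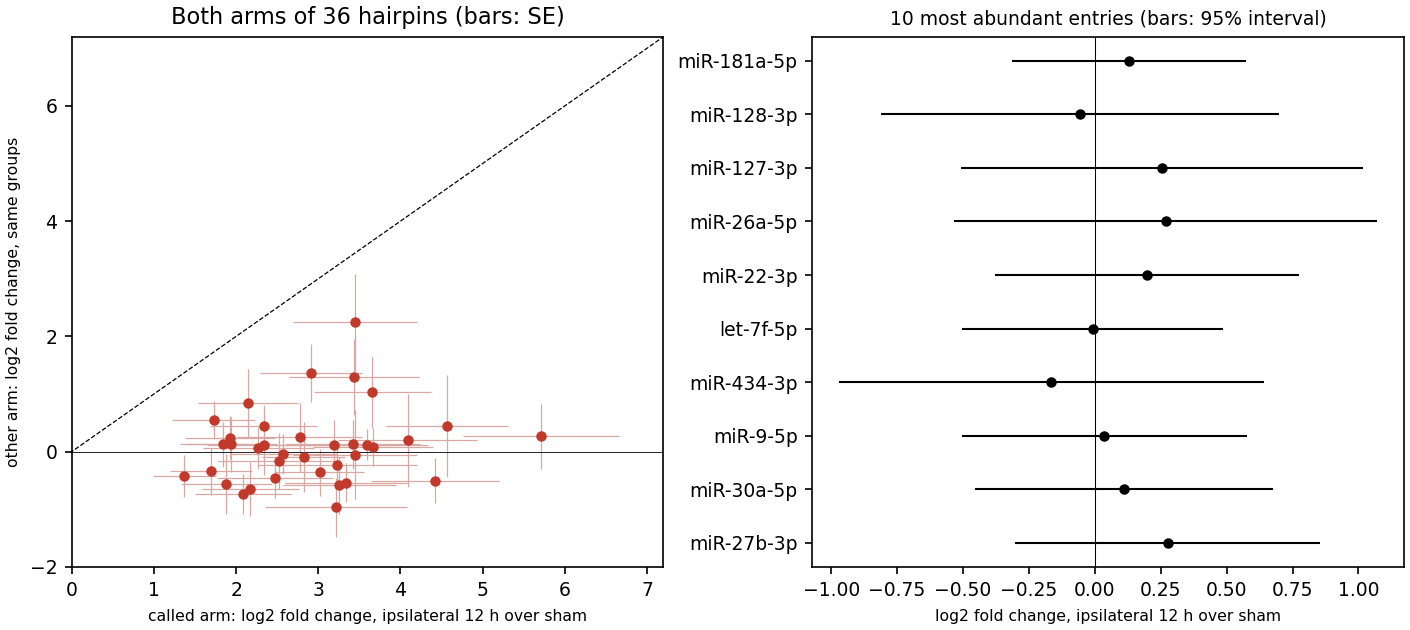
Left, log2 fold change of ipsilateral 12 h over sham cortex of the called arm (horizontal axis) and of the other arm of the same hairpin (vertical axis) for 36 hairpins, with SE bars and the line of equality dashed. All points lie below the line, which the choice of the called arm on these libraries favours. Right, the same log2 fold change with 95% intervals for the 10 most abundant entries, all of whose intervals include 0.

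Only 4 of the 10 lower entries had a mean of at least 10 CPM over the 6 libraries, and they fall into 2 pairs. miR-693-3p lies in an intron of Xpo5, the gene of exportin-5, which carries miRNA precursors out of the nucleus (hairpin at chr17:46231531-46231619, plus strand). It had 10.3, 7.36 and 8.83 CPM in ipsilateral 12 h cortex and 22.7, 24.5 and 20.2 CPM in sham cortex, with no overlap and little spread. Its log2 fold change was -1.33 ± 0.32 (edgeR adjusted p = 0.012, and 0.0083 with the surgery day as a block). miR-7026-3p, in an intron of the chromatin remodeller gene Ep400 at chr5:110666075-110666141 (minus strand), had 5.14, 4.91 and 8.83 CPM against 16.2, 12.2 and 20.2 CPM in sham cortex. It fell by 1.31 ± 0.38 on the log2 scale (edgeR adjusted p = 0.041). That call did not hold with a surgery-day block (0.053) or when any 1 of the 6 libraries was left out (0.061 to 0.19), and that of miR-693-3p did not hold without ipsilateral replicate 3 (0.12) or sham replicate 2 (0.064).

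The second pair rests on 1 sham library. miR-141-3p and miR-429-3p belong to the miR-200 family, which marks epithelia. miR-141-3p had 8.23, 6.14 and 11.5 CPM in ipsilateral libraries and 8.92, 1074 and 18.2 CPM in sham libraries (edgeR adjusted p = 0.021). miR-429-3p had 67.9, 83.5 and 57.4 CPM in ipsilateral libraries and 57.5, 2884 and 82.8 CPM in sham libraries (edgeR adjusted p = 0.047). In both, only sham replicate 2 was high and the other libraries overlapped. The log2 fold changes of -5.38 (miR-141-3p) and -3.86 (miR-429-3p) were -0.60 (adjusted p = 0.93) and -0.0045 (adjusted p = 1.0) without that library. A surgery-day block raised the adjusted p-values to 0.12 and 0.17. Summed over the 6 tested epithelial entries of the list (miR-200 family and miR-183 cluster), the ipsilateral libraries held 535, 453 and 756 CPM. The sham libraries held 479, 29721 and 441 CPM. In sham replicate 2 most of that sum was miR-182-5p, a miRNA of sensory epithelia and retina, at 22414 CPM. Without that library no listed member of the 2 clusters was called.

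The other 6 lower entries were near the limit of the depth, with ipsilateral levels of 0 to 7.36 CPM and sham levels of 6.99 to 17.2 CPM. They are miR-5620-5p, miR-7042-3p, miR-7005-3p, miR-6933-5p, miR-883a-5p and miR-7056-5p, with log2 fold changes from -2.13 (miR-7005-3p) to -1.26 (miR-7056-5p), and their groups did not overlap. Of all entries tested, 8.64% had every ipsilateral library below every sham library, and the lower calls were likewise picked by a test on these libraries.

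The abundant miRNAs of cortex gave no call. Of the 78 entries with a mean of at least 1000 CPM none was called by edgeR, the median size of their log2 fold change was 0.15, and for 63 the 95% interval lay within 1 log2 unit of 0. The 10 most abundant were miR-181a-5p, miR-128-3p, miR-127-3p, miR-26a-5p, miR-22-3p, let-7f-5p, miR-434-3p, miR-9-5p, miR-30a-5p and miR-27b-3p, with log2 fold changes from -0.16 (miR-434-3p) to 0.28 (miR-27b-3p). The widest of their intervals, for miR-26a-5p and miR-434-3p, ran from -0.53 to 1.07 and from -0.97 to 0.64. Together the 10 took 55.2%, 59.0% and 54.5% of the counts in ipsilateral libraries 1, 2 and 3, against 55.3%, 57.6% and 55.8% in the sham libraries.

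Only when all 23 lists were pooled were calls at about the rate of all entries. The lists had 175 members in the table, and 165 were tested. Of these, 6 were called higher and 2 lower, where 4.76% and 0.68% of all 1470 entries were, and all 8 are named above. None of the 6 higher calls was in an injury or cell-type list. They were 2 ribosomal RNA-derived entries, 2 entries of the Cdk9 locus and 2 members of the genomic clusters. The 2 lower calls were in the epithelial list and rest on sham replicate 2. The lists were chosen with earlier results of these data known, so the pooled count is not a test. Where no member was called (18 lists), the median log2 fold change lay between -0.32 (vascular miRNAs, 5 of 5 negative) and 0.32 (the miR-23, miR-27 and miR-24 clusters, 7 of 7 positive). The other scalings tried shift the median of all entries by -0.16 to 0.12, and 7 of these 18 lists kept the sign of their median in all of them, the vascular and the miR-23/27/24 lists included.

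Among miRNAs often named in brain injury, miR-21a-5p had 1769, 2347 and 1698 CPM in ipsilateral 12 h cortex and 1478, 1664 and 1278 CPM in sham cortex. The groups did not overlap, yet the difference of 0.40 ± 0.27 on the log2 scale did not pass (edgeR adjusted p = 0.59). miR-146b-5p had 460, 943 and 1161 CPM against 370, 540 and 521 CPM in sham cortex (0.84 ± 0.38, edgeR adjusted p = 0.29), and miR-155-5p, an immune-cell miRNA, had 15.4, 8.59 and 7.95 CPM against 5.67, 6.12 and 6.06 CPM (0.83 ± 0.43, edgeR adjusted p = 0.40). Neither passed, and the hypoxia-linked miR-210-3p was at 0.19 ± 0.34 with overlapping groups.

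The neuronal activity-linked miR-132-3p averaged 8297 ± 2976 CPM in ipsilateral 12 h cortex and 7391 ± 986 CPM in sham cortex (SD, n = 3 each), a log2 fold change of 0.17 with an interval from -0.37 to 0.70. Among the 11 neuron-enriched entries the largest value was that of miR-129-2-3p, with 408, 545 and 1805 CPM after ischemia and 381, 398 and 393 CPM in sham cortex. Every ipsilateral library was above every sham library, but only replicate 3 stood far out, and the log2 fold change of 1.23 ± 0.48 did not pass (edgeR adjusted p = 0.18).

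Markers of other cell types were given as CPM summed over the tested members of each list. The 6 tested leukocyte and microglia entries held 1389, 2381 and 1550 CPM in ipsilateral 12 h libraries and 2025, 1788 and 1763 CPM in sham libraries. The 3 erythrocyte entries held 196, 260 and 208 CPM in ipsilateral libraries and 172, 226 and 232 CPM in sham libraries, and the 5 vascular entries 15349, 24753 and 13145 CPM in ipsilateral libraries and 30407, 18682 and 16252 CPM in sham libraries. The 4 tested oligodendrocyte entries held 1619, 3022 and 1556 CPM in ipsilateral libraries and 1574, 2689 and 2022 CPM in sham libraries. The 4 choroid plexus entries held 3373, 3804 and 3012 CPM in ipsilateral libraries and 3048, 3367 and 2154 CPM in sham libraries. In each of these lists the groups overlapped and no member was called. Of the defining markers, miR-142a-3p of leukocytes had only 25 counts over the 6 libraries, miR-1a-3p of muscle had 28, and both were too scarce to be tested. Whether a change in cell types plays a part in the 70 higher entries was not tested.

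Sequence composition is given as a description, with no test. Of the 1470 tested entries 1290 had a RefSeq sequence, among them 61 of the 70 higher and all 10 lower entries. The median GC content was 68.2% in the higher entries, 47.8% in the lower entries and 52.4% in those not called. Among 79 entries with a GC content of at least 70%, 26 were called higher (32.9%), against 1 of 164 entries under 40% (0.61%). Between these, 1.61% were higher at 40 to 50% GC, 2.80% at 50 to 60% and 5.88% at 60 to 70%. Without ipsilateral replicate 3 the entries with at least 70% GC had 4 higher calls (5.06%), and those under 40% had 0 by edgeR. The gap was also present at a given level: among entries with 10 to 100 CPM in sham cortex the median GC content was 68.7% for the higher entries and 52.2% for those not called, and under 10 CPM it was 65.9% and 54.5%.

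A run of 4 G (GGGG, searched on the mature strand) was found in 31.1% of the higher entries and in 10.9% of all tested entries with a sequence. The first base was U in 27.9% of the higher entries and in 41.7% of all tested, and C in 32.8% and 21.0%. The mature sequence lay in a UTR for 14.8% of the higher entries and 5.74% of all tested, in a coding exon for 6.56% and 2.79%, and in an intron for 44.3% and 52.3% (GENCODE annotation, GRCm38). It also occurred letter for letter in a transcript other than a miRNA for 27.9% and 23.3%. Reads of such an entry and fragments of that transcript cannot be told apart in these counts.

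The GC-rich entries did not move alike in the 3 animals. Set against the sham mean, the median log2 level of the 79 entries with at least 70% GC was 0.63, 0.15 and 1.46 in ipsilateral 12 h libraries 1, 2 and 3, and 0.14, -0.27 and 0.04 in sham libraries 1, 2 and 3. At 60 to 70% GC the ipsilateral medians were 0.08, -0.32 and 0.19 and overlapped the sham medians of 0.03, -0.09 and 0.05. Across the 1290 entries, which share the same 6 libraries, GC content and log2 fold change had a Spearman rho of 0.23. High GC content did not cover all leaders: miR-701-5p has 42.9%, miR-494-3p 45.5% and miR-18a-5p 43.5%, whereas miR-5126 is 100% G and C and had 837, 217 and 2161 CPM after ischemia against 196, 121 and 126 CPM in sham cortex. miR-5126 rose by 2.86 on the log2 scale (edgeR adjusted p = 0.0079), a call that did not hold without ipsilateral replicate 3 (adjusted p = 0.26) or without sham replicates 2 (0.078) or 3 (0.052). The part of GC content in the result was not tested.

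**Figure D4:**
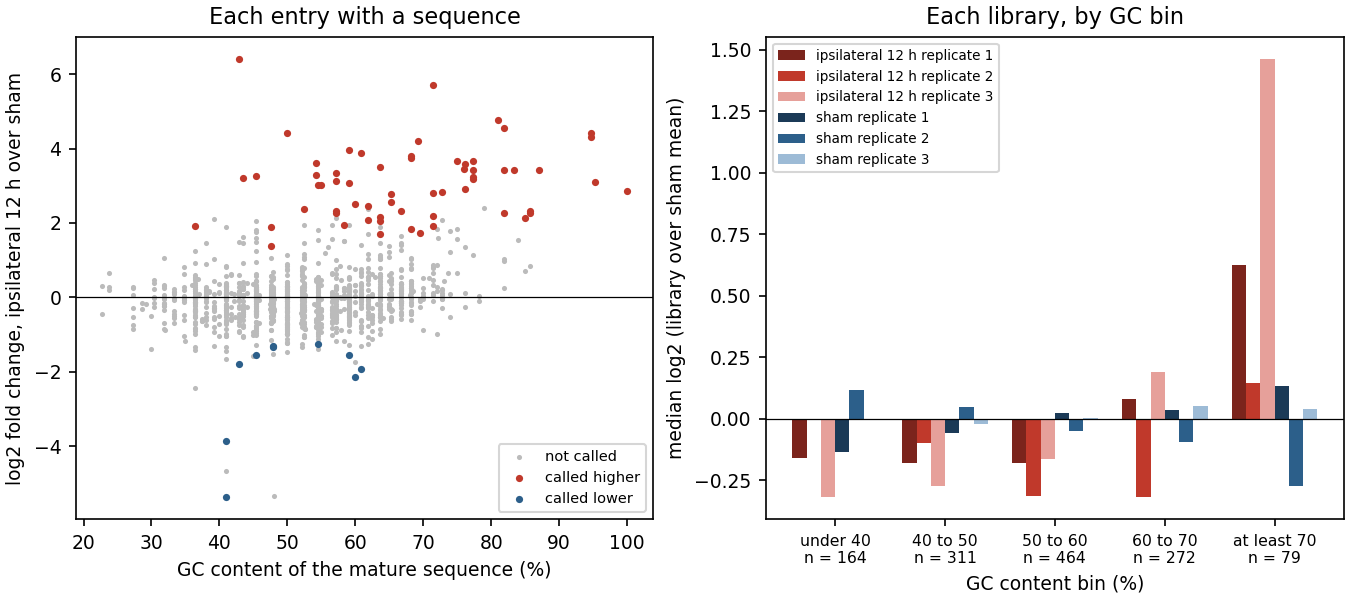
Left, log2 fold change of ipsilateral 12 h over sham cortex against the GC content of the mature sequence for the 1290 tested entries with a sequence. Right, the median log2 level of each library over the sham mean by GC bin, with the ipsilateral libraries (red shades) left of the sham libraries (blue shades); in the bin of at least 70% the ipsilateral medians are 0.63, 0.15 and 1.46.

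The contralateral cortex of mice at 12 h, set against the same sham libraries, gave 0 calls with edgeR (0%), with 64 entries at an unadjusted p under 0.05, and 0 calls with DESeq2. Tested directly, ipsilateral over contralateral cortex at 12 h had 64 entries called higher (4.35%) and 0 lower. DESeq2 called 78 and 0 in this comparison, with no adjusted p for 288 entries. All 70 entries higher than in sham cortex had a positive log2 difference there, and 53 passed. The 70 were picked for high ipsilateral 12 h libraries, which this comparison uses again, so it is not independent of that with sham. With the surgery day as a block this comparison gave 55 edgeR calls, 54 higher and 1 lower, and 44 of them were among the 70. Without ipsilateral replicate 3 this comparison gave 10 calls, all higher and all among both the 64 and the 70, and 68 of the 70 had a positive difference. It gave 34, 28 and 24 calls without contralateral replicates 1, 2 and 3, and 104 without ipsilateral replicate 2. miR-701-5p averaged 1548 ± 1835 CPM in ipsilateral cortex at 12 h, against 13.6 ± 5.89 CPM in contralateral cortex at 12 h and 18.1 ± 4.72 CPM in sham cortex (SD, n = 3 each). None of the 10 lower entries passed against contralateral cortex, where miR-693-3p had a log2 difference of -0.69 (edgeR adjusted p = 0.47) and miR-7026-3p one of -1.02 (adjusted p = 0.20).

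The 12 h values were also placed in the time course, whose comparisons with sham share the sham libraries. Against sham, edgeR called 0 entries at 3 h, with 86 at an unadjusted p under 0.05 and 18 by DESeq2, and 0 entries at 6 h, with 54 at an unadjusted p under 0.05 and 4 by DESeq2. At 24 h it called 186 (12.7%), of which 166 were higher (11.3%) and 20 lower (1.36%). A direct test of ipsilateral cortex at 12 h against 6 h, which does not use sham, called 7 entries (0.476%), all higher and all among the 70. It had 170 entries at an unadjusted p under 0.05. DESeq2 called 42, all higher, and gave no adjusted p for 231 entries. This test uses again the ipsilateral 12 h libraries for which the 70 were picked, so it is not independent of the comparison with sham. The 7 edgeR calls are miR-5627-3p, miR-7237-3p and, with log2 differences of 3.04 to 3.25 and an edgeR adjusted p of 0.042 each, miR-701-5p, miR-718, miR-3109-5p, miR-7666-5p and miR-494-3p. None of the 7 held with the surgery day as a block (0 calls, smallest edgeR adjusted p = 0.12), without ipsilateral 12 h replicate 3 (0 calls, smallest adjusted p = 0.46) or without any 1 of the 3 libraries at 6 h (0 calls each, smallest adjusted p = 0.079 to 0.14). There were 16 calls without ipsilateral 12 h replicate 1 and 63 without replicate 2. Of the 70 entries, 57 had a positive log2 difference without replicate 3.

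Ipsilateral cortex at 24 h against 12 h gave 0 edgeR calls, with 252 entries at an unadjusted p under 0.05. DESeq2 gave 5 higher and 65 lower calls, but it gave no adjusted p for 1000 of the 1470 entries. In edgeR all 70 higher entries had a positive log2 difference, with a median of 1.15 and a smallest adjusted p of 0.157. miR-701-5p averaged 55.9, 168, 1548 and 6261 CPM in ipsilateral cortex at 3, 6, 12 and 24 h, against 14.1, 12.4, 13.6 and 21.8 CPM in contralateral cortex. miR-7666-5p and miR-494-3p were nearer to the sham level at 3 and 6 h. They averaged 21.8, 33.3, 281 and 502 CPM (miR-7666-5p) and 11.0, 10.3, 85.5 and 279 CPM (miR-494-3p) at those times, where sham cortex had 17.4 and 8.92 CPM. At 3 h miR-7687-3p already had 164, 143 and 126 CPM, against 11.3, 10.5 and 8.08 CPM in sham cortex. For miR-701-5p, miR-1893, miR-718, miR-6968-5p, miR-2861, miR-6538 and miR-6240 the groups also did not overlap at 3 h, though edgeR called none there. They overlapped for miR-3109-5p, miR-1892, miR-7040-5p and miR-7666-5p. miR-6240 averaged 205, 140, 1127 and 2709 CPM at the 4 times, against 61.4 CPM in sham cortex.

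The lower entries had another course. miR-7026-3p averaged 16.4, 16.2, 6.29 and 17.8 CPM in ipsilateral cortex at 3, 6, 12 and 24 h and 16.2 CPM in sham cortex, so its mean was low at 12 h and close to that of sham at the other times. The direct tests did not pass for it, at -1.31 ± 0.38 for 12 h minus 6 h (edgeR adjusted p = 0.12) and 1.46 ± 0.37 for 24 h minus 12 h (adjusted p = 0.16). miR-693-3p averaged 13.6, 16.5, 8.83 and 13.2 CPM at those times and 22.5 CPM in sham cortex.

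**Figure D5:**
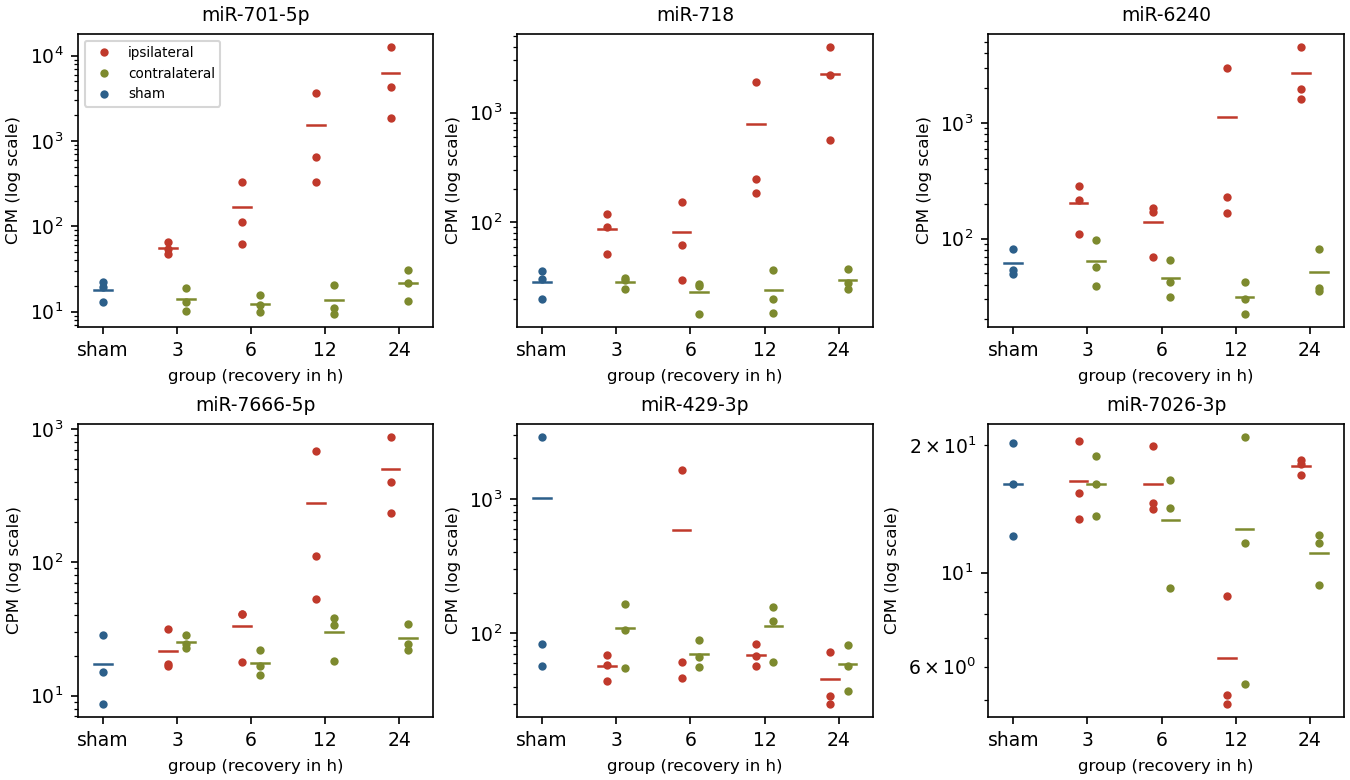
CPM (log axis) in each library for 6 entries in sham cortex (blue, left) and at 3, 6, 12 and 24 h of recovery in ipsilateral (red) and contralateral cortex (olive), with bars at group means. The 4 higher entries keep contralateral libraries near the sham level; miR-429-3p has 1 high library in sham and 1 in ipsilateral cortex at 6 h; miR-7026-3p is low in ipsilateral cortex at 12 h.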

How the data were processed

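Small RNA was extracted with Trizol from mouse cortex and sequenced as TruSeq small RNA libraries with inserts of 15 to 35 bp, as 69 bp single-end reads on a MiSeq, per the labels' protocols. The authors deposited raw counts of 1842 mature miRNA entries in 27 libraries. The submitters' processing notes name 2 tools, Novoalign and edgeR, but no version. No source used here states the build, annotation release or handling of multiply matching reads, so members of near-identical families may share reads.

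Entries were tested by quasi-likelihood in edgeR 4.0.16 (R 4.3.3) with TMM factors, robust dispersions, filterByExpr and 1 mean per group over all 27 libraries (18 residual degrees of freedom). The filter kept 1470 entries (99.9% of counts) and dropped 372. Benjamini-Hochberg adjustment ran over the 1470, and calls needed an adjusted p under 0.05. Errors of log2 fold changes are SE, taken as the size of the change over the square root of the F statistic of its test. The 95% intervals were built from this SE with the t distribution, so both are approximate. Levels are CPM by total and TMM factor. Scripts were tested on simulated data.

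Replicate numbers pair the samples, since each marks a day of surgery per the series design. Deviations of same-numbered libraries from their group means correlated at 0.42, 0.34 and 0.12 between the ipsilateral 12 h and sham groups. Named entries are up to 12 calls per direction by log2 fold change with a mean of at least 10 CPM over the 6 libraries, the 10 most abundant, and members of the 23 lists. The comparison and the lists were chosen with earlier results of these data known. Single entries named outside this rule (miR-5126, miR-149, miR-341, miR-5132-5p, miR-7016-5p, miR-7045-5p, miR-3072-5p, miR-1247-5p, the 7 calls against 6 h and the scarce lower entries) were chosen after their values were seen. Alternatives were other scalings, filters, DESeq2 1.42.0, the surgery-day block, the 6 libraries alone and each library left out. Sequences and hairpin positions come from RefSeq (GRCm38.p6) by name and gene overlaps from GENCODE M21 (GRCm38).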

Additional observations from a re-analysis of the deposited data

Results flagged for a closer look

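Differences between the hemispheres at 12 h, tested directly in edgeR, stood out for 16 of the named higher entries. These entries were picked for high ipsilateral 12 h libraries, which this test uses again. The log2 difference of ipsilateral over contralateral cortex at 12 h was 6.82 for miR-701-5p, 5.65 for miR-7687-3p, 5.15 for miR-6240, 5.13 for miR-6968-5p and 5.04 for miR-718. It was 4.96 for miR-1893, 4.70 for miR-2861, 4.58 for miR-3109-5p, 3.98 for miR-6538, 3.88 for miR-7040-5p and 3.72 for miR-1892. For the others it was 3.67 (miR-3960), 3.40 (miR-494-3p), 3.33 (miR-18a-5p), 3.22 (miR-7666-5p) and 2.82 (miR-712-3p). Without ipsilateral 12 h replicate 3, miR-701-5p, miR-7687-3p, miR-6240, miR-6968-5p, miR-718, miR-1893, miR-2861 and miR-3109-5p passed this test and the other 8 did not.

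A direct test of ipsilateral 12 h over 6 h, which also uses the ipsilateral 12 h libraries again, passed for 5 of them. The log2 differences were 3.25 for miR-718, 3.20 for miR-701-5p, 3.09 for miR-3109-5p, 3.07 for miR-7666-5p and 3.04 for miR-494-3p, each at an edgeR adjusted p of 0.042. Ipsilateral 12 h replicate 3 was the highest library of its group in each, and none of the 5 passed without it, without any 1 of the 6 h libraries or with the surgery-day block.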

How the results depend on the processing

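The 12 leading higher entries passed under every scaling, filter and tool tried and with the surgery-day block. Of these 12, 7 passed without ipsilateral replicate 3, and all 12 passed when any other single library was left out; none passed in the 6 libraries alone. Calls numbered 36 (35 higher, 1 lower) with total counts and 37 (34 and 3) with TMM factors from abundant entries. Lower calls were 5 with RLE factors, 5 with DESeq2, 4 with no filter and 6 at a mean of at least 10 CPM. The 6 libraries alone gave 0 calls, 0 higher and 0 lower; with the block as well they gave 1, higher, and 0 lower. The replicate block over all 27 libraries gave 66 calls (58 higher, 8 lower), 59 of them shared with the 80. Leaving out 1 library gave 7 to 108 calls, 7 to 103 higher and 0 to 8 lower, the fewest without ipsilateral replicate 3. For contralateral 12 h against sham this range was 0 to 1. Leaving out 1 library gave 10 to 104 calls for ipsilateral over contralateral cortex at 12 h and 0 to 63 for ipsilateral 12 h over 6 h; 12 h over 6 h had 42 calls with DESeq2 and 0 with the replicate block (all chosen after seeing the data). An alternative chosen after seeing the data, ipsilateral replicates 1 and 2 with sham replicates 1 and 3, left 1 call, miR-701-5p (1 higher, 0 lower); there miR-429-3p was at 0.12 and miR-3085-5p at -0.13, a change of sign in both. With 1 library left out, miR-3085-5p ranged from -0.43 (without ipsilateral replicate 3) to 3.06, and its groups overlapped. The cause was not tested. At these depths an entry under about 3 CPM rests on a few reads.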
